A study of Mus musculus with 19 samples.

Results

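The difference by Fmr1 label was measured in nuclear RNA of cortical astrocytes from 19 mice, with the Smad4 genotype held as a separate term. Of the 19 libraries, 9 carried the Fmr1 knockout (KO) label and 10 were Fmr1 intact, and each label was spread over both Smad4 genotypes. Members of each side were taken from the sample labels and not from any measured value. Nuclei had been prepared from fresh cortex and sorted by flow cytometry, keeping those with SOX9, which marks astrocyte nuclei, and without NEUN, which marks those of neurons. Ribosomal RNA had been depleted before sequencing.

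Every mouse was a C57BL/6J male, carried floxed Smad4 on both alleles and was 26 to 28 days old. The 9 Fmr1 KO mice were Fmr1 -/y. Of these, 4 also carried Gfap-Cre73.12, a Cre driven by the Gfap promoter, and are called Fmr1 KO;Smad4 cKO, while 5 lacked Cre. The 10 Fmr1 intact mice were Fmr1 +/y, and 6 of them carried Cre (Smad4 cKO) while 4 lacked it (WT). The Fmr1 deletion is in all cells of these mice, whereas the Cre acts where the Gfap promoter is active, so blood vessels, neurons and oligodendrocytes of an Fmr1 KO mouse carry it too. The labels do not give litters, and p-values measure the spread between these libraries.

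Fmr1 encodes FMRP, an RNA-binding protein that represses translation of many messenger RNAs and is lost in fragile X syndrome. FMRP is best known at neuronal synapses, but astrocytes also make it, and astrocytes shape synapses through secreted proteins, glutamate uptake and potassium buffering. Smad4 encodes the shared partner with which activated SMAD proteins pass BMP and TGF-beta signals to the genome. An additive model with both labels asks how the sorted nuclei differ by Fmr1 label, with the Smad4 label as a second term. It does not separate the Fmr1 deletion from other things that differ by that label, such as library make-up.

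Values are the authors' TPM, a length-scaled abundance, divided here by 1 scaling factor per library, and are called scaled TPM. A difference is the limma coefficient of the Fmr1 label on log2(scaled TPM + 1), Fmr1 KO minus Fmr1 intact, with its standard error over 9 Fmr1 KO and 10 Fmr1 intact libraries. That scale understates the change of genes near 1 TPM. Genes passed at a Benjamini-Hochberg adjusted p under 0.05 in limma over the 15049 genes that averaged 1 TPM or more, and "rose" and "fell" are used of these only. Read depth is unknown, because TPM keeps no read totals. Libraries resembled each other closely, with Pearson r between 0.951 and 0.979 across genes. The 20 mature astrocyte markers had a median level of 453 TPM per gene, against 7.12 TPM for 20 neuron markers and 8.50 TPM for 14 endothelial markers. Rn45s, the ribosomal RNA precursor, took 15.6% to 23.1% of the listed TPM in Fmr1 KO libraries (mean 19.2% ± 2.91, SD, n = 9), against 20.7% to 35.7% in Fmr1 intact libraries (mean 27.4% ± 5.50, SD, n = 10). The Rn45s share was 8.50 points lower by Fmr1 label (difference -8.50, two-sided exact permutation within Smad4 genotypes, p = 0.000907), and it was also fitted as a term.

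The Fmr1 transcript itself (X:68678541-68717963, plus strand, GRCm38) was listed at higher values in the knockout. It had 35.4, 37.5 and 41.6 scaled TPM as the lowest, median and highest of the Fmr1 KO libraries, against 20.5, 24.4 and 31.5 in the Fmr1 intact libraries. All 9 Fmr1 KO libraries lay above all 10 Fmr1 intact ones. Its mean was 37.0 ± 1.36 in Fmr1 KO;Smad4 cKO and 23.8 ± 2.72 in Smad4 cKO, and 38.8 ± 1.94 in Fmr1 KO and 26.1 ± 4.27 in WT (SD, n = 4, 6, 5 and 4). The difference was 0.60 ± 0.06 (limma, adjusted p = 0.000221), and an exact two-sided permutation of the labels within Smad4 genotypes gave p = 3.78e-05, the smallest it can give. The knockout allele is known to carry a cassette inside the gene, and a value summed over the gene does not show whether transcripts run through it. The targeted gene thus separated the labels but at a higher value in the knockout, which does not check the deletion, and the protein was not measured. Fmr1 KO here and throughout means the libraries labelled so. Smad4, whose floxed part a gene-level value does not resolve, had a difference by Fmr1 label of -0.02 (limma SE 0.05, exact permutation p = 0.584).

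**Figure D1:**
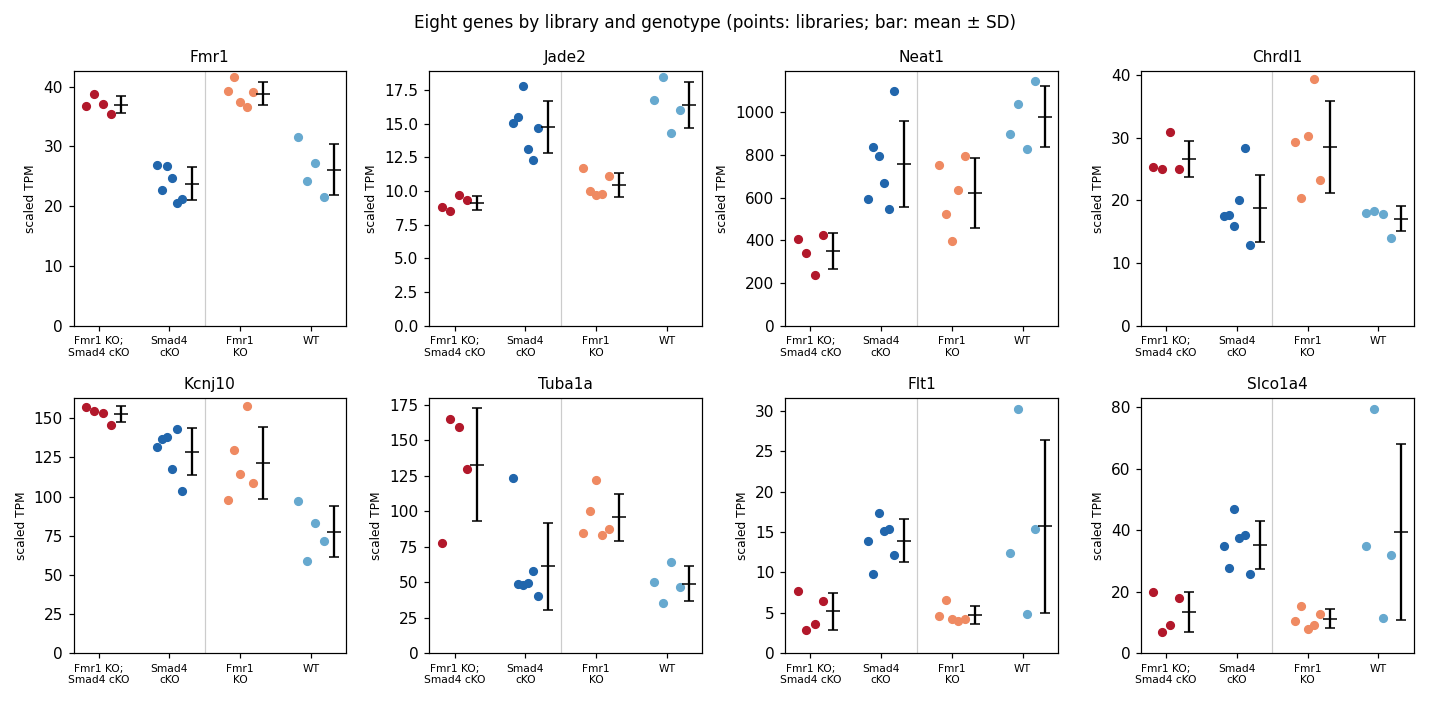
Scaled TPM of 8 genes in each library (points), with mean ± SD beside them, for Fmr1 KO;Smad4 cKO (n = 4) left of Smad4 cKO (n = 6) and Fmr1 KO with intact Smad4 (n = 5) left of WT (n = 4). Fmr1 lies higher and Jade2 lower in every Fmr1 KO library than in any Fmr1 intact one, whereas Flt1 and Slco1a4 overlap through 1 low WT library.

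Over all genes, 280 of 15049 passed (1.86%). Of these, 59 rose (0.392% of those tested) and 221 fell (1.47%). Genes that fell were changed more, with a median difference of -0.76, against 0.37 for those that rose. Among the 52 genes changed by over 2-fold, 47 fell and 5 rose. The median over all tested genes was 0.01, 53.1% of them had a difference above 0, and 2062 had an unadjusted p under 0.05. Balance between the directions depended on the scaling: without a scaling factor, the deposited TPM gave 487 genes that rose and 205 that fell, so 70.4% rose in place of 21.1%. Adding the Rn45s share as a term left 0 genes past the threshold (limma, 2255 at an unadjusted p under 0.05), and Fmr1 then had a difference of 0.45 (adjusted p = 0.161). The 19 fits that each left out 1 library passed 125 to 366 genes, with 125 when Fmr1 KO;Smad4 cKO replicate 3 was left out.

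**Figure D2:**
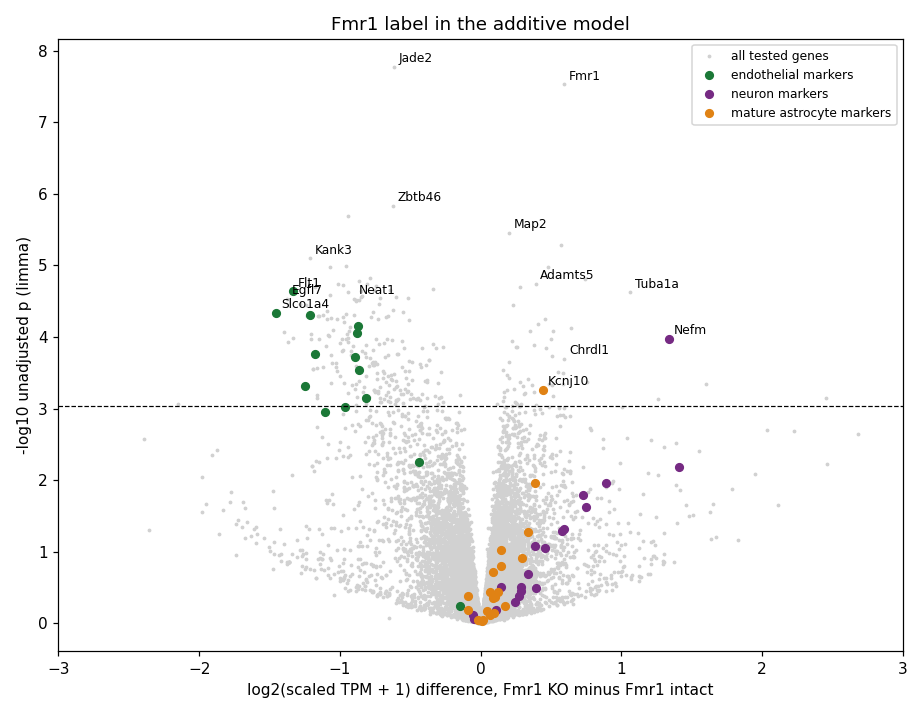
Each point is 1 of 15049 genes, with the log2(scaled TPM + 1) difference of Fmr1 KO minus Fmr1 intact on the horizontal axis and -log10 of the unadjusted limma p on the vertical axis, and the dashed line marks the largest p that passed. Jade2 and Fmr1 stand above all other genes, and endothelial markers lie on the left while neuron and mature astrocyte markers lie mostly right of 0.

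Complete separation of the libraries was rare. All 9 Fmr1 KO libraries lay above all 10 Fmr1 intact ones for 4 genes (0.0266% of those tested), namely Fmr1, Map2, Tet1 and Hmgn3. They lay below for 13 genes (0.0864%), which were Jade2, Zbtb46, Atp2a3, Arhgap29, Gbp4, B3gnt2, Pdgfb, Dennd3, Rhobtb1, Slc38a11, Slc6a6, Tep1 and Atp10d.

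Jade2, a scaffold subunit of the HBO1 histone acetyltransferase complex, shared the smallest adjusted p with Fmr1. It had 8.53, 9.73 and 11.7 scaled TPM in Fmr1 KO libraries as lowest, median and highest, against 12.3, 15.3 and 18.4 in Fmr1 intact libraries. No library of one label reached the range of the other. Jade2 fell by 0.62 ± 0.06 (difference -0.62, limma, adjusted p = 0.000221). An exact permutation within Smad4 genotypes gave p = 3.78e-05, the smallest possible, but the complete separation fixes that value. It is not adjusted for the choice of Jade2 among 15049 genes and adds no separate support. Within Smad4 cKO mice the difference was -0.63 ± 0.09 and within Smad4 intact mice -0.60 ± 0.10. It was -0.78 on postnatal day 26 and -0.45 on day 27. Among 10 members of JADE and HBO1 complexes, a list assembled after values were seen, Jade2 was the only one past the threshold. The median of the list was -0.07, against 0.01 over all genes.

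Some genes of microtubules and neurofilaments rose. Tuba1a, an alpha-tubulin of growing neurites, had 77.7, 100 and 165 scaled TPM in Fmr1 KO libraries, against 34.9, 49.0 and 123 in Fmr1 intact libraries. The groups overlapped through 1 Smad4 cKO library at 123. The difference was 1.06 ± 0.19 (limma, adjusted p = 0.0123). Map2, a microtubule-binding protein of dendrites, lay between 79.8 and 86.1 in Fmr1 KO libraries (median 81.2), against 67.1 to 77.5 in Fmr1 intact ones (median 71.2). Its change was small but separated the labels completely (difference 0.20 ± 0.03, limma, adjusted p = 0.0105). Nefm, the medium neurofilament subunit, had 2.44, 6.95 and 16.4 in Fmr1 KO libraries, against 0.614, 2.08 and 4.65 in Fmr1 intact libraries (difference 1.34 ± 0.27, limma, adjusted p = 0.0182). Of 19 tested tubulin and microtubule genes, a list made after values were seen, Camsap2, Map2 and Tuba1a rose and 0 fell. Over all genes 0.392% rose, and the list median was 0.37, against 0.01 over all genes. The call of Camsap2 was lost in 15 of the 19 fits without 1 library. Nefm was the only one of 19 tested neuron markers that passed, and the list's median was 0.38. Sst, the interneuron peptide somatostatin, had the largest difference on that list (1.41 ± 0.46) but missed the threshold (limma, adjusted p = 0.143). Summed over 20 neuron markers, the level ranged from 199.9 to 569 in Fmr1 KO libraries (median 231) and from 111 to 373 in Fmr1 intact libraries (median 176). With a neuron score as a term all 280 genes kept their direction, and 169 genes passed (39 rose, 130 fell), of which 97 were among the 280.

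Adhesion and guidance genes were also among those that rose with the smallest p. Chl1, a neural cell adhesion molecule, had 9.82, 12.6 and 14.5 scaled TPM in Fmr1 KO libraries, against 6.88, 8.998 and 10.5 in Fmr1 intact ones (difference 0.48 ± 0.08, limma, adjusted p = 0.0123). Dcc, the netrin receptor, ranged from 15.03 to 23.9, against 9.37 to 17.9 (difference 0.46 ± 0.09, limma, adjusted p = 0.0135). Cask, an X-linked synaptic scaffold, rose by 0.28 ± 0.05, and Chn1, a Rac GTPase-activating protein, rose by 0.52 ± 0.10. The remaining rises with the smallest p were in Nap1l3, a nucleosome assembly protein (0.74 ± 0.13), Mtmr10, a myotubularin family member (0.23 ± 0.04), Fndc5, the precursor of irisin (0.64 ± 0.13), Polr3g, an RNA polymerase III subunit (0.50 ± 0.10), and Slc30a10, a manganese exporter (0.35 ± 0.07). Adcy2, an adenylyl cyclase, rose by 0.41 ± 0.08, whereas Adcy4, the cyclase typical of endothelium, fell (difference -0.98 ± 0.17). Of the other 7 tested adenylyl cyclases, 0 passed.

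Astrocyte genes that act on synapses and ions held 2 rises. Chrdl1, an X-linked secreted BMP antagonist that astrocytes use to mature synapses, had 20.3, 25.3 and 39.3 scaled TPM in Fmr1 KO libraries, against 12.9, 17.7 and 28.3 in Fmr1 intact ones. The ranges overlapped. The difference was 0.60 ± 0.13 (limma, adjusted p = 0.0237), with 0.52 ± 0.18 in Smad4 cKO mice and 0.68 ± 0.19 in Smad4 intact mice. Chrdl1 was the only one of 21 tested astrocyte synapse regulators that passed. Kcnj10, the inward rectifier potassium channel of astrocyte endfeet, had 97.9, 145 and 158 in Fmr1 KO libraries, against 58.6, 111 and 144 in Fmr1 intact libraries. Its mean was 153 ± 5.17 in Fmr1 KO;Smad4 cKO and 129 ± 15.04 in Smad4 cKO, and 122 ± 23.2 in Fmr1 KO and 77.6 ± 16.5 in WT. The difference was 0.44 ± 0.11 (limma, adjusted p = 0.0392), and the call was lost in 11 of the 19 fits that each left out 1 library. Kcnj10 was also the only one past the threshold of 24 genes for transmitter uptake and ion balance, 23 of which had a difference above 0 (median 0.14), and of 20 mature astrocyte markers (median 0.09). Aqp4, the endfoot water channel, had 0.34 ± 0.17 (limma, adjusted p = 0.375), S100b, a calcium-binding protein, 0.39 ± 0.14 (adjusted p = 0.187), and Slc1a2, the main glutamate transporter, 0.05 ± 0.12 (adjusted p = 0.915). Summed over the 20 astrocyte markers, levels stood at 10680 to 20219 scaled TPM in Fmr1 KO libraries and 10098 to 16867 in Fmr1 intact libraries.

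Secreted signals outside those lists rose too, and these 3 were chosen after their values were seen. Ptn, the heparin-binding growth factor pleiotrophin, had 241, 261 and 308 scaled TPM in Fmr1 KO libraries, against 153, 192 and 288 in Fmr1 intact ones (difference 0.46 ± 0.10, limma, adjusted p = 0.0199). Apln, the X-linked peptide apelin, ranged from 35.8 to 76.7, against 31.6 to 51.8 (difference 0.51 ± 0.12, limma, adjusted p = 0.0360). Inhbb, a subunit of activin B, ranged from 18.4 to 32.6, against 10.2 to 24.3 (difference 0.58 ± 0.14, limma, adjusted p = 0.0358). Calls of Apln and Inhbb were each lost in 12 of the 19 fits without 1 library, and that of Ptn in 0.

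Genes of blood vessels were among those that fell. Of 14 endothelial markers, 10 fell, beside 1.47% of all genes, 0 rose and all 14 had a difference below 0, with a median of -0.93, against 0.01 over all genes. Flt1, a VEGF receptor, had 2.91, 4.16 and 7.69 scaled TPM in Fmr1 KO libraries, against 4.79, 14.5 and 30.2 in Fmr1 intact libraries. The Fmr1 KO libraries overlapped with 1 WT library, at 4.79, and with no other Fmr1 intact one. The difference was -1.33 ± 0.24 (limma, adjusted p = 0.0123). Slco1a4, an organic anion transporter of the blood-brain barrier, had 6.72, 10.5 and 19.8 in Fmr1 KO libraries, against 11.3, 35.0 and 79.4 in Fmr1 intact ones (difference -1.45 ± 0.27, limma, adjusted p = 0.0135). Abcb1a, the P-glycoprotein efflux pump, fell by 1.21 ± 0.23, and Tek, the angiopoietin receptor, fell by 0.87 ± 0.17. Cdh5, Emcn, Erg, Esam, Ly6c1 and Pecam1 completed the 10. The 4 others included Cldn5, the tight-junction claudin, with -1.11 ± 0.29 (limma, adjusted p = 0.0557).

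Groups of vascular genes assembled after the values were seen are given as a description, since they were chosen partly for how they moved. Of 19 angiogenic receptors and ligands, 11 fell, among them Tie1, Ptprb, Robo4, Eng, Acvrl1, Flt4 and Pdgfb, beside 1.47% of all genes. Of 19 transporters and carriers of the blood-brain barrier, 9 fell, among them Slc22a8, Slc7a1, Abcg2 and Car4. Endothelial transcription factors held 6 of 18 that fell, namely Erg, Ets1, Fli1, Foxf2, Mecom and Sox17, and junction genes held 6 of 14. These groups share members with the endothelial markers above, so the counts are not of separate genes. Flt1, Tek, Abcb1a, Slco1a4, Erg, Cdh5, Esam and Pecam1 were counted in both. Calls of Eng, Acvrl1, Flt4, Jag2 and the marker Cdh5 were each lost in 15 of the 19 fits without 1 library. Those of Fli1 and Slc19a3 were lost in 13, those of Ly6c1 and Ugt1a2 in 12, that of Mecom in 7 and those of Erg and Ets1 in 6. Other calls in these groups were lost in fewer fits or in none. Of 8 tested genes of the Ugt1a cluster, which encodes glucuronidating enzymes, 7 fell, but the cluster's transcripts share exons and their values cannot be counted as separate genes. Genes with the smallest p among all that fell were of the same kind in part. Arhgap29 and Arhgef15 had differences of -0.95 ± 0.16 and -1.07 ± 0.18, Kank3 -1.21 ± 0.20, and Hspa12b, an endothelial member of the Hsp70 family, -1.18 ± 0.21. Fendrr, a long non-coding RNA, had -1.01 ± 0.18, Smtn, which encodes smoothelin, -0.79 ± 0.13, and Sh2d3c, an adaptor protein, -0.80 ± 0.14. Zbtb46, a zinc finger transcription factor, had 2.37, 2.64 and 3.92 scaled TPM in Fmr1 KO libraries, against 4.08, 4.53 and 7.11 in Fmr1 intact libraries (difference -0.62 ± 0.09, limma, adjusted p = 0.00738). Atp2a3, a calcium pump of the endoplasmic reticulum, had 0.784, 1.27 and 1.58, against 1.75, 3.55 and 4.93 (difference -0.94 ± 0.14, limma, adjusted p = 0.00775). Gbp4, an interferon-induced GTPase, had -0.87 ± 0.15, Mgst1, a microsomal glutathione transferase, -0.74 ± 0.13, Map4k2, a kinase, -0.34 ± 0.06, and B3gnt2, which builds poly-N-acetyllactosamine, -0.64 ± 0.11.

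**Figure D3:**
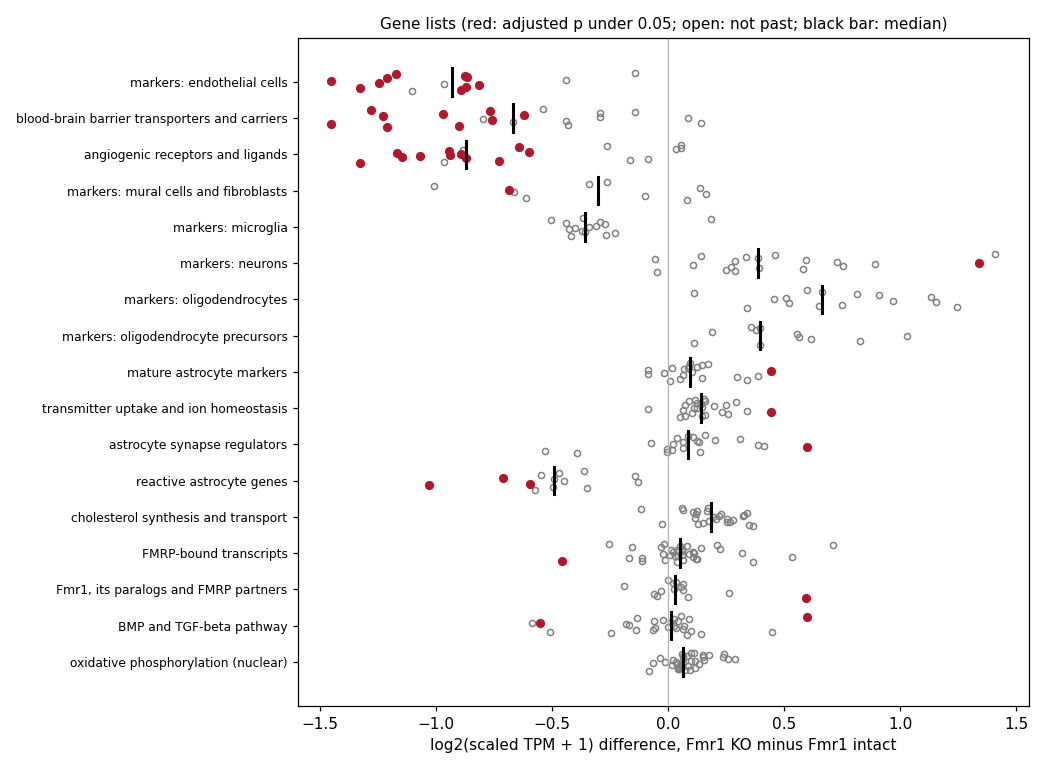
Each row is a gene list and each point a tested member, placed by its log2(scaled TPM + 1) difference of Fmr1 KO minus Fmr1 intact, in red where the adjusted p was under 0.05 and open where it was not, with the list's median as a black bar. Endothelial markers have 10 red points and a median of -0.93, while oligodendrocyte markers lie right of 0 with no red point.

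The level of endothelial RNA in the libraries moved with the label. Summed over the 14 endothelial markers, scaled TPM ranged from 163 to 420 in Fmr1 KO libraries (median 247), against 211 to 781 in Fmr1 intact libraries (median 444), and no marker was at 0 in any library. In these sorted bulk samples, fewer vascular nuclei and less RNA per vascular nucleus cannot be told apart. The markers were far below the astrocyte markers per gene, as given above. Oligodendrocyte markers ran the other way: all 15 had a difference above 0 (median 0.66), 0 passed in limma and 3 had an unadjusted p under 0.05, and the sum ranged from 329 to 3862 in Fmr1 KO libraries (median 2714), against 268 to 3185 in Fmr1 intact libraries (median 1186). Of 11 markers of oligodendrocyte precursors, all had a difference above 0, 0 passed and 3 had an unadjusted p under 0.05. Over all 15049 tested genes, 53.1% had a difference above 0 and 2062 had an unadjusted p under 0.05. Microglia markers had a median of -0.36 with 0 of 15 past the threshold and 0 at an unadjusted p under 0.05, and their sum was 84.3 to 524 in Fmr1 KO libraries, against 99.7 to 452 in Fmr1 intact libraries. Of 10 tested mural and fibroblast markers, 7 had a difference below 0 (median -0.30), 6 had an unadjusted p under 0.05, and Abcc9, a potassium channel subunit of pericytes, fell. The sum over all 14 listed markers of that kind ranged from 159 to 230 in Fmr1 KO libraries, against 154 to 309 in Fmr1 intact libraries. Of 7 tested ependymal and choroid plexus markers (median 0.31), 8 of neural progenitors (median 0.24) and 4 spliceosomal and histone-processing RNAs (median 0.19), 0 passed in limma, with 0, 1 and 0 at an unadjusted p under 0.05.

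**Figure D4:**
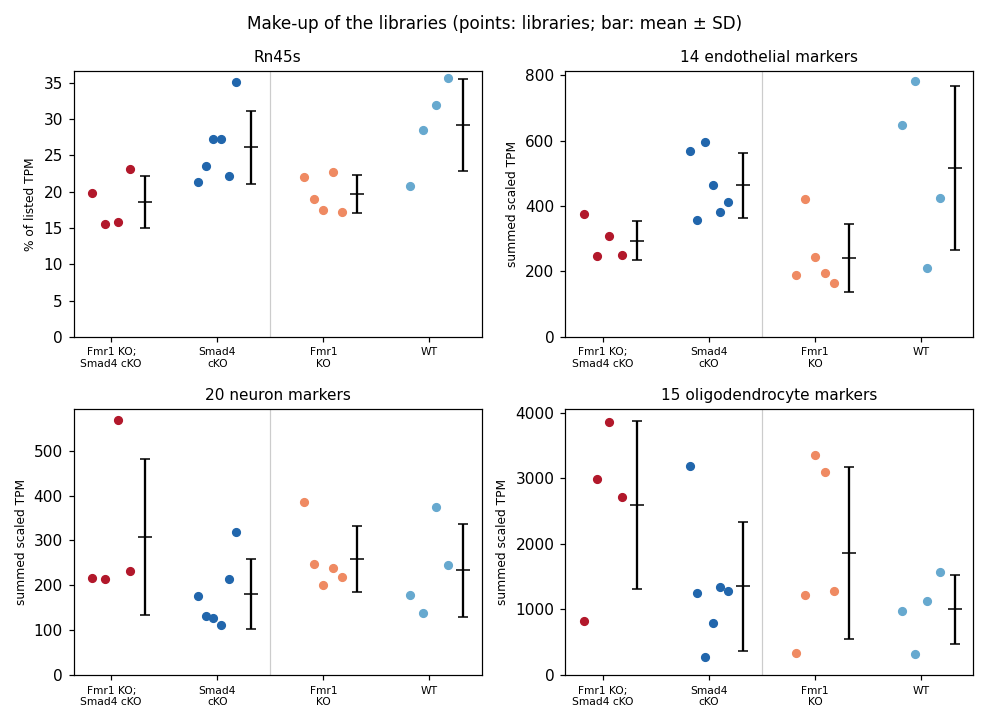
Share of listed TPM taken by Rn45s and summed scaled TPM of endothelial, neuron and oligodendrocyte markers in each library (points), with mean ± SD, for Fmr1 KO;Smad4 cKO left of Smad4 cKO and Fmr1 KO with intact Smad4 left of WT. The Rn45s share lies between 15.6% and 23.1% in the Fmr1 KO libraries and reaches 35.7% in the Fmr1 intact ones, and the marker sums of both labels overlap.

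How closely a gene followed the endothelial markers, once both labels were taken out, differed between the directions. A gene's residual correlation with the endothelial score was above 0.5 for 154 of 211 genes that fell (73.0%) and for 0 of 59 that rose, against 832 of 14765 that did not pass (5.63%). Markers themselves are left out of these counts. The correlations are over the same 19 libraries and are a description. With the endothelial score as a further term, a fit added after seeing the data, 0 genes passed (limma, 1253 at an unadjusted p under 0.05). The differences of Flt1, Slco1a4 and Abcb1a became -0.27 ± 0.15, -0.24 ± 0.19 and -0.14. Those of Fmr1, Neat1 and Map2 stayed at 0.64 ± 0.10, -0.93 ± 0.26 and 0.20 ± 0.05, and Jade2 had -0.50 ± 0.09, with adjusted p of 0.106, 0.596, 0.596 and 0.376 in the order named. Standard errors became smaller for Flt1 and Slco1a4 and larger for Fmr1, Neat1, Map2 and Jade2. Flt1, Slco1a4 and Abcb1a are themselves among the markers averaged into the score. Their move toward 0 and the smaller standard errors were thus partly built in. Of the 280 genes, 270 kept their direction with the score as a term.

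**Figure D5:**
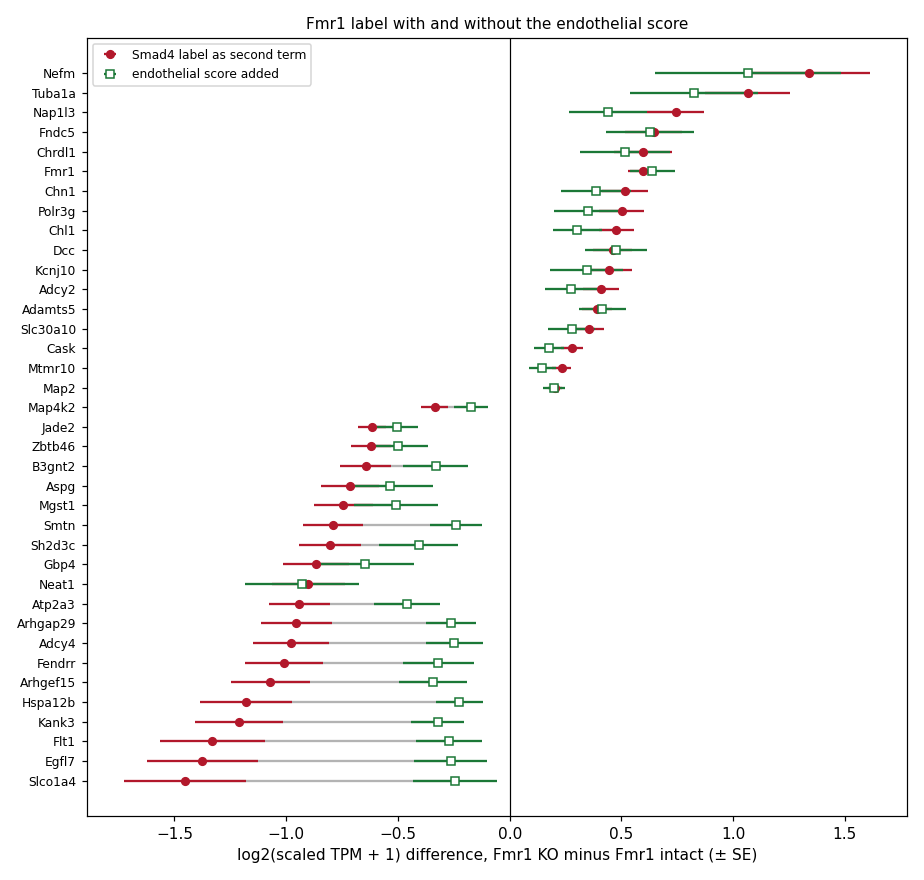
Log2(scaled TPM + 1) difference of Fmr1 KO minus Fmr1 intact (± SE) for the genes of smallest p in each direction and 7 others, with the Smad4 label as second term (red) and with the endothelial score added (green squares). Vascular genes such as Slco1a4, Egfl7 and Flt1 move close to 0, while Fmr1, Neat1, Fndc5, Dcc and Adamts5 move little. Slco1a4 and Flt1 are markers within the score, so their move is partly built in, whereas Egfl7 is not one of its markers.

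A stretch of promoter is shown for 2 vascular genes that fell. Both hold the letters sought, so they do not stand for the genes that fell. Egfl7 was picked with its values known. The letters sought were CAGGAAG and its reverse complement CTTCCTG, an ETS-family motif, in the 250 bases before the start of RefSeq genes (GRCm38.p6), on both strands. Capitals mark the matches. Egfl7, a secreted endothelial protein, lies on the plus strand at 2:26580833-26581082 and Emcn, an endothelial sialomucin, on the plus strand at 3:137340828-137341077.
Egfl7: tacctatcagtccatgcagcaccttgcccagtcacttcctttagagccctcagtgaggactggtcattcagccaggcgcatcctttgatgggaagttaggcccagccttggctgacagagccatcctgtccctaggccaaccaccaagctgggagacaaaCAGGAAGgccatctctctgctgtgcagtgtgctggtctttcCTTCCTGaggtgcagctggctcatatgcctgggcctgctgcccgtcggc
Emcn: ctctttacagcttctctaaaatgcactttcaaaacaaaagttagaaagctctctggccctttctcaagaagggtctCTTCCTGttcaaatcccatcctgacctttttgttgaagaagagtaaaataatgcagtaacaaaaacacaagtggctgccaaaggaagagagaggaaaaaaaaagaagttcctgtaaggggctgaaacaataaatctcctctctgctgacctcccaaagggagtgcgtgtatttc
These letters stood in 17 of 157 matched promoters of genes that fell (10.8%), in 1 of 39 of genes that rose (2.56%) and in 1000 of 10781 of all tested genes (9.28%). The share among genes that fell was thus close to that of all genes. Of 11 endothelial markers with a promoter, Emcn was the only one with a match.

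Neat1 and 3 genes of astrocyte reactivity also fell. Neat1, the long non-coding RNA that builds nuclear paraspeckles, had 236, 425 and 796 scaled TPM in Fmr1 KO libraries, against 547, 832 and 1147 in Fmr1 intact libraries. The ranges overlapped, and 1 of the Fmr1 KO;Smad4 cKO libraries was lowest. Its mean was 351 ± 85.1 in Fmr1 KO;Smad4 cKO and 756 ± 202 in Smad4 cKO, and 621 ± 164 in Fmr1 KO and 977 ± 143 in WT. The difference was -0.90 ± 0.16 (limma, adjusted p = 0.0123). Of 13 tested abundant nuclear non-coding RNAs, Neat1 alone passed, and the median of the list was 0.08. All 13 tested reactive astrocyte genes had a difference below 0 (median -0.49), whereas 53.1% of all tested genes had one above 0. Of the 13, 3 fell, beside 1.47% of all genes. Aspg, an asparaginase raised in reactive astrocytes, had 3.74, 5.17 and 7.20, against 6.58, 8.64 and 14.01 (difference -0.71 ± 0.13, limma, adjusted p = 0.0123). C4b, a complement component, had 12.3, 47.3 and 62.4, against 30.7, 77.2 and 199 (difference -1.03 ± 0.23, limma, adjusted p = 0.0256), a call lost in 4 of the 19 fits without 1 library. These ranges mix Smad4 genotypes. C4b ranged from 48.7 to 62.4 in Fmr1 KO;Smad4 cKO and from 64.7 to 199 in Smad4 cKO. With intact Smad4 it ranged from 12.3 to 47.3 in Fmr1 KO and from 30.7 to 63.1 in WT. Osmr, the oncostatin M receptor, had -0.60 ± 0.15, with its call lost in 14 of the 19 fits without 1 library, and Gfap, the astrocyte intermediate filament, -0.58 ± 0.22 (limma, adjusted p = 0.234). With the endothelial score as a term, C4b had -0.40, Osmr -0.18, Aspg -0.54 and Gfap -0.34.

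The extracellular matrix moved in both directions. Adamts5, a protease that cleaves aggrecan and other lecticans, had 5.76, 6.30 and 7.57 scaled TPM in Fmr1 KO libraries, against 4.04, 4.80 and 6.16 in Fmr1 intact ones (difference 0.39 ± 0.07, limma, adjusted p = 0.0123). Col4a1 and Col4a2, the basement membrane collagens, fell (differences -0.72 ± 0.15 and -0.49 ± 0.11), the call of Col4a2 being lost in 10 of the 19 fits without 1 library. The other 21 of 24 tested matrix genes did not pass, among them Tnc, the matrix protein tenascin C, which had 16.8, 51.8 and 72.5, against 9.36, 17.7 and 59.1 (difference 0.41 ± 0.13, limma, adjusted p = 0.128).

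Lists tied to fragile X biology held 1 gene past the threshold each. Of 37 FMRP-bound transcripts, Shank3, a postsynaptic scaffold, fell and 0 rose, so 1 of 37 passed beside 1.86% of all genes, and the median was 0.05. Shank3 had 10.3, 12.0 and 16.9 scaled TPM in Fmr1 KO libraries, against 11.6, 18.7 and 27.2 in Fmr1 intact libraries (difference -0.46 ± 0.11, limma, adjusted p = 0.0437). Of 14 genes of FMRP, its paralogs and partners, Fmr1 alone passed and 2 had an unadjusted p under 0.05, beside 2062 of all 15049 genes. Fxr1, the autosomal paralog of Fmr1, had 0.09 ± 0.05 (limma, adjusted p = 0.493). Of 23 tested genes of mGluR5, mTOR and translation initiation, Igf1r, the IGF receptor, fell (difference -0.59 ± 0.15, limma, adjusted p = 0.0437). Eif4ebp1, a translation repressor, had -0.43 ± 0.12 (adjusted p = 0.0706), and Grm5, the mGluR5 receptor, had 0.14 ± 0.20 (adjusted p = 0.836). Kcnt1, a sodium-activated potassium channel known to bind FMRP, had 8.53, 13.7 and 26.8, against 11.3, 27.2 and 50.4 (difference -1.05 ± 0.23, limma, adjusted p = 0.0256). The other 7 ion channels of that list did not pass. Calls of Shank3 and Igf1r were each lost in 15 of the 19 fits without 1 library.

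The BMP and TGF-beta lists, whose signals Smad4 carries, held 2 genes that passed. Acvrl1, Eng and Inhbb, given above, also passed but are not on these lists. Of 27 tested pathway genes, Chrdl1 rose and Tgfbr3, a TGF-beta co-receptor, fell (difference -0.55 ± 0.14, limma, adjusted p = 0.0473), and the median was 0.01. The call of Tgfbr3 was lost in 15 of the 19 fits without 1 library. Among 16 tested SMAD-responsive targets 0 passed in limma, and 3 had an unadjusted p under 0.05, beside 2062 of all 15049 genes. Tgfbr2, a TGF-beta receptor, had -0.59 ± 0.15 (limma, adjusted p = 0.0544), and Bmp6, a BMP ligand of astrocytes, had 1.31, 2.15 and 3.03 scaled TPM in Fmr1 KO libraries, against 1.44, 2.66 and 4.23 in Fmr1 intact ones (difference -0.24 ± 0.17, adjusted p = 0.574).

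Several pathway lists held 0 genes past the threshold in limma. Over all 15049 tested genes, 53.1% had a difference above 0 and 2062 had an unadjusted p under 0.05. Of 26 cholesterol genes, 24 had a difference above 0 (median 0.19) and 6 an unadjusted p under 0.05. That count was 5 of 37 nuclear genes of oxidative phosphorylation (median 0.07), 6 of 23 genes of glycolysis and the lactate shuttle (median 0.07) and 9 of 23 of antigen presentation and interferon response (median -0.25). It was 3 of 18 immediate early genes (median 0.21), 5 of 18 clock genes (median 0.11), 5 of 78 ribosomal protein genes (median 0.04) and 8 of 116 small nucleolar and Cajal body RNAs (median 0.05). Ccnd2, a G1 cyclin, rose among 10 tested cell cycle genes (0.51 ± 0.11, limma, adjusted p = 0.0228). Of 62 tested histone genes, Hist1h2bm and Hist1h3e rose, and Hist1h2bm was listed at 0 in some libraries of both labels. Of 728 tested microRNA genes 2 passed. Mir3059 was at 0 in all 10 Fmr1 intact libraries and in some Fmr1 KO ones (highest 25.5 scaled TPM), so no fold is given, and Mir8100 was at 0 in libraries of both labels. Of the 19 fits without 1 library, 14 lost Hist1h2bm and 14 lost Hist1h3e, while 16 lost Mir3059 and 16 lost Mir8100.

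The X chromosome, which carries Fmr1, held 11 genes that passed among 499 tested (2.204%), against 262 of 14145 elsewhere (1.85%). Of the 11, 8 rose (1.60% of those tested) and 3 fell, whereas 50 rose (0.353%) and 212 fell on the other chromosomes. The 8 include Fmr1 itself, the targeted gene. Besides Fmr1, Nap1l3, Cask, Chrdl1 and Apln, the X-linked rises included Rab39b, a small GTPase, at 6.89 Mb from the start of Fmr1 (difference 0.55 ± 0.12, limma, adjusted p = 0.0288) and the non-coding 4933407K13Rik at 7.03 Mb (0.57 ± 0.09, adjusted p = 0.0123). Flna, the actin cross-linker filamin A, fell at 5.54 Mb (difference -0.28 ± 0.07, adjusted p = 0.0432), a call lost in 15 of the 19 fits without 1 library. The call of Rab39b was lost in 5 of these fits. Within 5 Mb of Fmr1, 0 of 25 neighbours passed in limma and 3 had an unadjusted p under 0.05, beside 2062 of all 15049 genes. The median of the 25 neighbours was 0.11. Their differences ran from -0.30 to 0.55. The nearest were Aff2, at 0.682 Mb, with 0.38 ± 0.13 (limma, adjusted p = 0.154), Ids, at 1.66 Mb, with 0.25 ± 0.08 (adjusted p = 0.141), and the non-coding 1110012L19Rik, at 1.71 Mb, with -0.11 ± 0.22 (adjusted p = 0.891). The smallest adjusted p was that of Vma21 at 3.14 Mb (0.46 ± 0.13, adjusted p = 0.0792).

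The 5 genes whose log2 values followed Fmr1 most closely over the 19 libraries were Hsf2, a heat shock transcription factor, Map2, Ints8, an Integrator subunit, Taf1d, an RNA polymerase I factor, and Pfn2, a profilin. Their Pearson r with Fmr1 ran from 0.83 to 0.87. The label itself contributes to these correlations, so they are a description. Of the 5, Map2 and Ints8 rose by the Fmr1 label, and Hsf2 and Pfn2 were just outside the threshold (limma, adjusted p = 0.0508 and 0.0568).

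Whether the Fmr1 difference depended on Smad4 was tested as an interaction, (Fmr1 KO;Smad4 cKO minus Smad4 cKO) minus (Fmr1 KO minus WT). In limma 0 of 15049 genes passed, and 250 had an unadjusted p under 0.05. For Fmr1 the interaction was 0.06 ± 0.13, for Jade2 -0.04 ± 0.13, for Kcnj10 -0.39 ± 0.20 and for Neat1 -0.41 ± 0.32. All 280 genes that passed had the same sign in both Smad4 genotypes and on postnatal days 26 and 27 taken separately, but the calls were made from these same libraries. Day 26 held 4 Fmr1 KO and 4 Fmr1 intact libraries, day 27 held 5 and 4, and the 2 libraries of day 28 were both Fmr1 intact. On day 26 and day 27 in that order, Fmr1 differed by 0.47 and 0.70, Chrdl1 by 0.50 and 0.72, Tuba1a by 0.90 and 1.05, Neat1 by -0.98 and -0.82, and Slco1a4 by -1.55 and -0.99. Without the day 28 libraries 70 genes passed, of which 12 rose and 58 fell.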

How the data were processed

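Nuclear RNA of sorted SOX9+ NEUN- cortical nuclei was measured in 19 libraries of 4 genotypes. The authors deposited 1 table of TPM for 24537 genes, of which 3517 were at 0 in every library. Per the submitters' processing notes, bcl2fastq 2.20, STAR 2.5.3a, HOMER 4.10.4 and MultiQC 1.0 were used with mm10. Exon or gene-body counting and strand are not given in the sources used here, so overlapping and antisense genes cannot be told apart. TPM keeps no read totals, so depth is unknown, no count model was used and no counting interval can be given.

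Each library's TPM was scaled by its median-of-ratios factor, and log2(scaled TPM + 1) of the 15049 genes that averaged 1 TPM or more was fitted by limma-trend (limma 3.58.1, R 4.3.3) with the Fmr1 and Smad4 labels as additive terms. Adjusted p come from the Benjamini-Hochberg method over all 15049 genes. A second fit with 4 group means gave the interaction and the difference within each Smad4 genotype. Fmr1, Smad4, Jade2 and the Rn45s share were also tested by exact two-sided permutation of the Fmr1 labels within Smad4 genotypes (26460 permutations). A cell-type score is the mean of the markers' centred log2 values. Gene positions came from GENCODE vM21 (GRCm38), matched by symbol for 14644 genes, and promoters from RefSeq (GRCm38.p6), matched for 10781 genes. The fit was tested on simulated data with known differences. Noise was drawn independently for each gene there, so variation shared between genes was not covered. Python 3.11.15 and matplotlib 3.10.9 drew the figures.

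Genes to name were drawn from Fmr1, Smad4, up to 15 genes of smallest p in each direction, up to 4 of smallest p in each list, genes past the threshold within 5 Mb of Fmr1, the 5 most correlated with Fmr1, and Gfap, Bmp6, Grm5, Slc1a2, Kcnj10, Sparc, Chrdl1, Tnc and Rn45s, with clone, predicted, microRNA and small nucleolar names passed over. Not all of these are reported here by name, and those left out stay in all counts. Other names were chosen after their values were seen. Members, lists and tests were chosen with earlier results of these data known. Alternatives covered scaling, pseudocount, filter, postnatal day, replicate number, weights, cell-type scores, the Rn45s share and leaving out libraries. The scores taken singly, leaving out the libraries of extreme endothelial score and leaving out day 28 were added after seeing the data.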

Additional observations from a re-analysis of the deposited data

Results flagged for a closer look

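Within each genotype, 15 genes, the Rn45s share and 4 marker sums were examined for a library far from the others, so 80 groups in all, and in 10 of these groups a library stood apart by Dixon's criterion. Chance alone flags about 1 in 20 groups. Values below are scaled TPM.

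Of the genes that rose, Map2 had 86.1 in Fmr1 KO;Smad4 cKO replicate 1, with the other libraries of that genotype between 80.6 and 81.2. Chrdl1 had 30.9 in Fmr1 KO;Smad4 cKO replicate 3, with no other above 25.3, and 14.05 in WT replicate 4, with the others between 17.8 and 18.4. Adamts5 had 7.57 in Fmr1 KO;Smad4 cKO replicate 4, with the others between 6.10 and 6.22, and 6.16 in Smad4 cKO replicate 5, with the others between 4.76 and 5.28. Tuba1a had 123 in Smad4 cKO replicate 1, with the others between 40.4 and 57.5, so the library lay inside the range of the Fmr1 KO libraries. Flt1, which fell, had 6.58 in Fmr1 KO replicate 2, with the others between 4.01 and 4.57.

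Marker sums of other cell types held the remaining ones. Neuron markers summed to 569 in Fmr1 KO;Smad4 cKO replicate 3, with the others between 215 and 231, and to 385 in Fmr1 KO replicate 1, with the others between 199.9 and 247. Oligodendrocyte markers summed to 3185 in Smad4 cKO replicate 1, with the others between 268 and 1341. Each library was left out in turn, and no library set the direction of Map2, Chrdl1, Adamts5, Tuba1a or Flt1.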

How the results depend on the processing

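Against 280 genes (59 higher, 221 lower), the counts were 692 (487 and 205) with TPM as deposited, 98 (22 and 76) with quantile normalization, 120 (34 and 86) at a mean TPM of at least 5, 503 (127 and 376) with library weights, 511 (162 and 349) at a threshold of 0.1, 184 (42 and 142) with postnatal day as a number, 119 (28 and 91) with day as a factor, 169 (39 and 130) with the neuron score, 35 (10 and 25) with the oligodendrocyte score, 89 (15 and 74) without the libraries of lowest and highest endothelial score and 70 (12 and 58) without day 28. Leaving out, per genotype, the library with most neuron signal, 33 genes were higher. In limma 0 passed with 3 cell-type scores (Fmr1 0.63, adjusted p = 0.155), with the endothelial score (Fmr1 0.64, adjusted p = 0.106) and with the Rn45s share (Fmr1 0.45, adjusted p = 0.161), at 1577, 1253 and 2255 genes of unadjusted p under 0.05. The cause was not tested. Pseudocounts of 0.1 and 0.5, no filter, no variance trend, the mean of both Fmr1 differences and leaving out microRNA and small nucleolar genes kept the total between 230 and 315. The interaction stayed at 0 genes in every fit in which it was estimated.

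Leaving out 1 library gave 125 to 366 genes, 23 to 77 higher and 100 to 289 lower. The total was under 187 without WT replicate 2 (145) or 4 (169), Smad4 cKO replicate 3 (167), Fmr1 KO replicate 3 (185), 4 (154) or 5 (185), or Fmr1 KO;Smad4 cKO replicate 2 (141) or 3 (125). Fmr1 stayed between 0.56 and 0.64 (limma, adjusted p from 5.18e-05 to 0.00123) and the Rn45s difference between -9.66 and -7.48. Of 102 named genes that passed, 58 did so in all 19 of these fits.

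With a replicate block 2 genes passed, 1 higher and 1 lower (Fmr1 and Jade2). Over 25 pairs, libraries sharing a replicate number had residual correlations of -0.27 to 0.20 (median 0.00), 5 of them over 0.1. Of 19 libraries, 3 correlated best with their own number. Whether equal numbers mark shared litters or handling is not given in the labels and cannot be told from these correlations.

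Of the 280 genes, 270 kept their direction with the 3 scores and 270 with the endothelial score. The named genes whose difference changed sign were as follows. Smad4 (-0.02) became 0.058 with TPM as deposited, 0.0051 with day as a factor, 0.12 and 0.13 with the 3 scores and the endothelial score, 0.032 with the neuron score, 0.011 with the oligodendrocyte score, 0.0022 without the extreme endothelial libraries and 0.0041 without day 28. Fxr2 became 0.034 with TPM as deposited. Slc1a2 became -0.090 with quantile normalization, -0.0055 with weights and -0.0017 without Fmr1 KO;Smad4 cKO replicate 1, with 0.098 the highest when 1 library was left out. With the 3 scores and the endothelial score in that order, Acvrl1 became 0.038 and 0.019, Cdh5 0.072 and 0.057, Eng 0.14 and 0.13, Ly6c1 0.12 and 0.11, Slc19a3 0.012 and 0.014, Cldn5 0.11 and 0.088, Sparc 0.41 and 0.39, and Grm5 -0.44 and -0.50. Cdh5, Ly6c1 and Cldn5 are themselves markers within the endothelial score. Grm5 became -0.16 with the neuron score, and Bmp6 0.13 and Aqp4 -0.058 with the Rn45s share.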
